A study of Mus musculus with 10 samples.

Results

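The control ovaries of the series are 5 of its 10 polyA RNA libraries, taken by their titles, which name them as control ovary. They carried 2 wild-type alleles of Dmrt1 (Dmrt1 +/+), floxed Rara, Rarb and Rarg, which encode the retinoic acid receptors (f/f for each), and no Cre (Sf1-Cre-), on a C57BL/6 and 129 mixed background. The mice were 6 weeks old, were kept in conventional housing and had no treatment. Whole gonads were dissected into Trizol for RNA, from which a stranded kit made the libraries. Every control thus carried floxed receptor alleles without a Cre to delete them, and no ovary without floxed alleles stands beside them. The stage of the oestrous cycle is not given in the sources used here, and neither is whether each library came from a separate animal, so the spread between the 5 libraries may be partly technical. The description below covers which genes were most abundant, which ovarian cell types their markers show, and which genes differed most from control to control. There is only 1 group, so no comparison between groups was tested.

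The ovary of a young adult mouse holds follicles at every stage. Each follicle is an oocyte surrounded by granulosa cells, which respond to follicle-stimulating hormone, make inhibins and convert androgens to oestrogens with aromatase. Theca cells outside the follicle make the androgens. After ovulation the follicle wall becomes a corpus luteum, which makes progesterone from cholesterol and later regresses. The number and age of corpora lutea can thus differ with the stage of the cycle. Stroma, vessels, immune cells and a surface epithelium surround these structures.

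The libraries held 23502220 to 25920131 counts, and controls are numbered as their titles number the replicates. A further number in the title of control 1 lies apart from those of the other 4, which are close to each other. The Pearson correlation of log2 CPM, the count scaled to a common library total, across 16577 genes, which are not independent replicates, ran from 0.928 between controls 1 and 3 to 0.987 between controls 4 and 5. Controls 1 and 3 stood apart: on the first principal component (51.7% of the variance) control 1 lay at -47.3, control 3 at 59.9 and the other 3 from -10.8 to 4.59. Controls 1, 3 and 4 differed by transcript length, so that trend was not particular to controls 1 and 3. In the eighth of protein-coding genes with the shortest transcripts, the median log2 deviation from the gene's mean was -0.35 in control 1, 0.23 in control 3 and 0.15 in control 4, and in the longest eighth it was 0.35, -0.18 and -0.19. Controls 2 and 5 stayed between -0.06 and 0.03 in these eighths. Ribosomal protein genes, which are short, took 5.44% of the counts in control 1, 6.58% in control 2, 10.4% in control 3, 8.05% in control 4 and 7.36% in control 5. The deposited FPKM of all genes summed to 489950 in control 1 and 707030 in control 3, so rescaling to a common sum moves every level in control 3 by -0.281 on the log2 scale and in control 1 by 0.248.

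**Figure D1:**
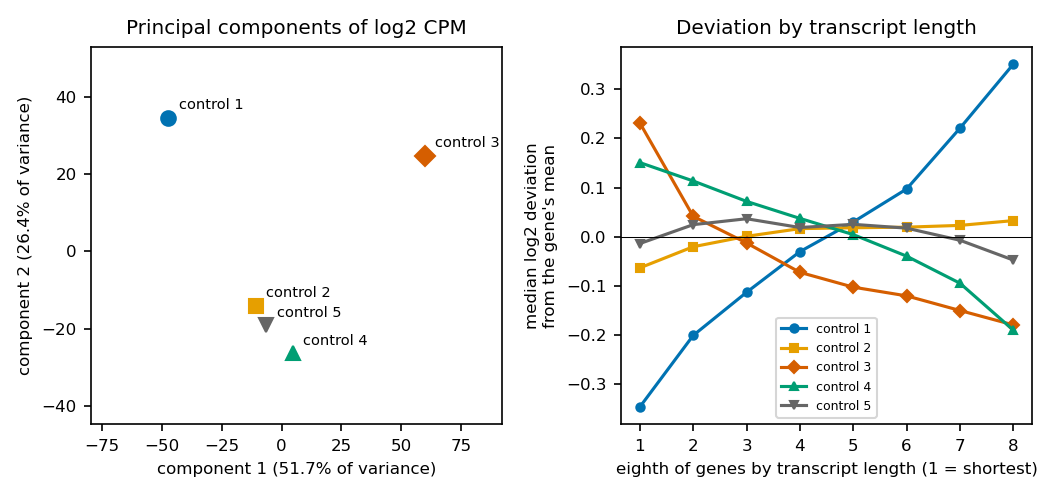
Left, each control library on the first 2 principal components of log2 CPM. Right, the median log2 deviation of genes from their own mean over the 5 controls (y axis) in eighths of protein-coding genes by transcript length (x axis, shortest first), with 1 line per library. Control 1 rises from -0.35 to 0.35, control 3 falls from 0.23 to -0.18 and control 4 from 0.15 to -0.19.

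Levels between genes are compared on the deposited FPKM scale, which divides counts by transcript length. Of 24306 genes in the table, 14911 had a mean of at least 1 FPKM over the 5 controls, and 13640 reached 1 FPKM in every control. A mean of at least 10 FPKM was reached by 5782 genes, of at least 100 FPKM by 788 and of at least 1000 FPKM by 70. Among protein-coding genes 12026 of 16985 reached 1 FPKM. The 10 most abundant genes took 8.303%, 8.57%, 7.28%, 8.67% and 8.83% of the counts in controls 1 to 5, lowest in control 3. The genes needed to reach 50% of the counts numbered 1075, 1017, 767, 872 and 951, again lowest in control 3.

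The mitochondrial genome led the list. Of the 30 genes with the highest mean FPKM, 11 were mitochondrially encoded genes of the respiratory chain and ATP synthase, 6 were pseudogenes on chromosome 1, 5 were processed pseudogenes and 2 were short loci annotated as miRNA genes, Gm23935 and Gm24270. The other 6 were 4 ribosomal protein genes, the translation factor gene Eef1a1 and Hsd3b1. mt-Co3, which encodes a subunit of cytochrome c oxidase, had 10511, 11078, 11660, 11604 and 11464 FPKM in controls 1 to 5. mt-Co1, another subunit of that enzyme, had 10983, 10487, 9404, 10246 and 10731 FPKM in controls 1 to 5. Both stayed within 1.17-fold across the 5 libraries.

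The chromosome 1 pseudogenes are copies of mitochondrial genes, and reads from the identical stretches cannot be assigned to either. Gm28437 was identical to mt-Co3 over all 783 bases compared, and its mean count was 216820 against 216340 for mt-Co3. Gm28661 was identical to mt-Co2 over 681 bases, with mean counts of 145340 and 145250. In controls 1 to 5 Gm28661 had 118225, 139533, 145069, 166386 and 157512 counts, and mt-Co2 had 118083, 139458, 144962, 166308 and 157433. Reads thus appear to be counted for both copy and original, though this was not tested. Library totals, shares of the counts and ranks given here would then hold such reads more than once. Gm10925 matched mt-Atp6 without a difference over 678 bases, but its mean count was higher, 223740 against 162660. Gm28439 matched mt-Nd4 over 876 bases, with mean counts of 42451 and 108380. Only 6 of 492 bases differed between Gm29216 and mt-Co1, and 1 of 345 between Gm28438 and mt-Nd3. The stretches that hold these differences are printed here, since they are the only places in the compared bases where a read could tell the copy from the original. They lie in GENCODE M21 transcripts on GRCm38 at chrM:6381-6470, chr1:24616108-24616197 (minus strand), chrM:9459-9548 and chr1:24613030-24613119 (minus strand), and capitals mark the bases that differ.
mt-Co1: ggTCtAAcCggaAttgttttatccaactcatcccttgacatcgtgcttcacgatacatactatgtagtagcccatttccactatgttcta
Gm29216: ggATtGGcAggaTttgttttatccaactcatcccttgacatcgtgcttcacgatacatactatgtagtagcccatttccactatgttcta
mt-Nd3: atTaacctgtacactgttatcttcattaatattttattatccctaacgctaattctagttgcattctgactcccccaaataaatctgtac
Gm28438: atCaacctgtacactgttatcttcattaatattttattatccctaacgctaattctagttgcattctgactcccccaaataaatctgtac
All bases outside the capitals are the same in each pair, so the levels of the pseudogenes cannot be told apart from those of the mitochondrial genes. Processed pseudogenes of the top 30 share their sequence in the same way: every 50-base window of Tpt1-ps3 also occurs in Tpt1, and every one of Gm10123 in Ppia. The miRNA loci Gm23935 and Gm24270 are 57 bases long and share every window. Gm23935 had 2509, 9561, 4312, 1351 and 5006 FPKM in controls 1 to 5, with control 2 highest and control 4 lowest.

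Hsd3b1 ranked 12 by mean FPKM and was the most abundant nuclear protein-coding gene. It encodes the dehydrogenase that makes progesterone from pregnenolone and lies at chr3:98852194-98859794. Hsd3b1 had 3943, 4151, 2869, 4331 and 3923 FPKM in controls 1 to 5. Control 3 was the lowest and the other 4 lay close together. Eef1a1, which carries aminoacyl-tRNAs to the ribosome, ranked 15. It had 2395, 2467, 2403, 2859 and 2737 FPKM in controls 1 to 5, but 60.6% of its 50-base windows also occur in other genes, mostly pseudogenes. Outside ribosomal protein and predicted genes the next were Ubb (ubiquitin, mean 1573 FPKM), Inha (rank 39), Tpt1, Myl6, Ptma and Aldh1a1 (rank 73). Other genes also hold 61.03% of the windows of Ubb, 41.96% of Tpt1 and 27.8% of Ptma, so the ranks of these and of Eef1a1 are uncertain. Fth1, Cyp11a1, Sod1, Wbp5, Akr1cl, Eef2 and Gja1 followed. Ovarian genes stood among genes that every cell uses. These were Inha, the inhibin alpha subunit, Cyp11a1, the side-chain cleavage enzyme that starts steroid synthesis, Aldh1a1, a retinaldehyde dehydrogenase, and Gja1, the gap junction protein of granulosa cells.

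Myl6, a myosin light chain, had 731, 951, 2304, 1324 and 950.3 FPKM in controls 1 to 5. Control 3 was 1.74-fold above the next library. Akr1cl, an aldo-keto reductase, had 556, 855, 1110.4, 601 and 676 FPKM in controls 1 to 5, and controls 3 and 2 were the highest. Idh1, the cytosolic isocitrate dehydrogenase that makes NADPH, had 561, 527, 176, 504 and 414 FPKM in controls 1 to 5. Here control 3 was 2.35-fold below the next lowest library.

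**Figure D2:**
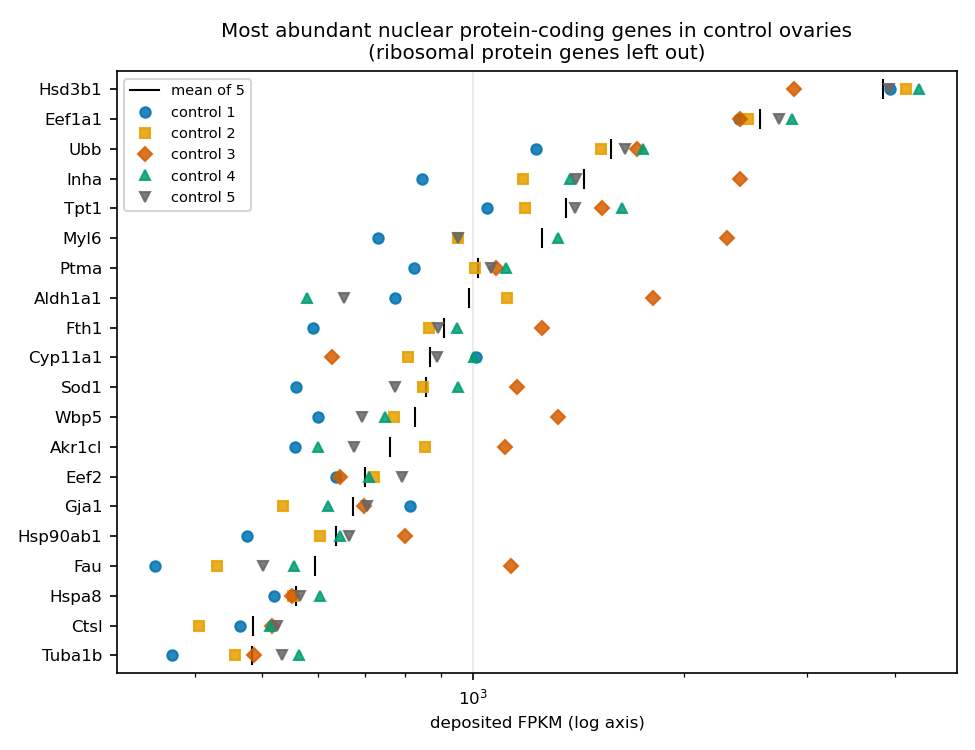
Deposited FPKM on a log axis of the 20 nuclear protein-coding genes with the highest mean, ribosomal protein genes left out, with 1 symbol per control library and a bar at the mean of the 5. Hsd3b1 leads at a mean of 3844 FPKM, and control 3 lies apart to the right for Inha, Myl6 and Aldh1a1 and to the left for Hsd3b1 and Cyp11a1.

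Granulosa cell genes were all measured: each of the 13 markers had a mean of at least 1 FPKM. Their summed level was 2496, 2638, 5110, 3082 and 3231 FPKM in controls 1 to 5. Control 3 was highest, and the range over the libraries fell from 2.05-fold to 1.29-fold without it. In bulk tissue more cells of a type and more RNA per cell cannot be told apart.

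Inha, at chr1:75507077-75510366, had 846, 1178, 2407, 1374 and 1405 FPKM in controls 1 to 5. Control 3 was 1.71-fold above the next library and control 1 was lowest. Inhba, the beta A subunit that pairs with it in inhibin A and alone forms activin A, had 169, 119.7, 819, 188 and 141 FPKM in controls 1 to 5. Control 3 stood 4.37-fold above the next library, and the other 4 lay within 1.57-fold. Inhbb, the beta B subunit, did not follow: it had 149, 149, 149, 157 and 171 FPKM in controls 1 to 5, a range of 1.15-fold over all 5 on the FPKM scale.

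Cyp19a1, aromatase, had 10.99, 3.42, 45.95, 8.44 and 4.72 FPKM in controls 1 to 5. Control 3 was 4.18-fold above control 1, the next. Fshr, the receptor for follicle-stimulating hormone, had 20.4, 10.1, 35.5, 13.3 and 17.5 FPKM in controls 1 to 5. Amh, anti-Müllerian hormone of growing follicles, had 41.2, 74.5, 139.8, 76.9 and 105 FPKM in controls 1 to 5. Control 3 was again the highest of the 5 for both. Control 1 was the lowest for Amh and control 2 for Fshr. Foxl2, the transcription factor that maintains granulosa identity, had 36.97, 50.6, 39.95, 39.1 and 49.8 FPKM in controls 1 to 5 and varied by only 1.37-fold. Gja1 and Nr5a2, a nuclear receptor of granulosa cells, varied by 1.52-fold and 1.37-fold. On the CPM scale 10 of the 13 granulosa genes were highest in control 3, where 26.9% of all 16577 genes with a mean of at least 1 CPM were highest. Control 1 was the lowest for 7 of them, as it was for 33.5% of all genes.

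The promoter of Inhba is shown because, of the 13 granulosa genes, it had the largest fold of control 3 over the next library. The 250 bases before its start (RefSeq, GRCm38.p6, chr13:16011601-16011850, plus strand) hold the letters TATAAA, in capitals.
Inhba: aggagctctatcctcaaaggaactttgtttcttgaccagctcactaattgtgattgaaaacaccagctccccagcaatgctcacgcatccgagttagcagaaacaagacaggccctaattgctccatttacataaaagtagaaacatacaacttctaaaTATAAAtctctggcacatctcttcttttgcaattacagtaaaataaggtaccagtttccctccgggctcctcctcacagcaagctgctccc
On either strand, TATAAA occurs in 12.4% of the 32851 promoter windows of that length. A match of letters is a description and not a site.

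The theca enzyme Cyp17a1 had the widest range of the 12 steroid synthesis genes. Cyp17a1, which makes androgens from progestins and lies at chr19:46667165-46673172, had 130.1, 3.73, 305, 58.2 and 7.46 FPKM in controls 1 to 5. Controls 3 and 1 were high, control 4 between, and controls 2 and 5 low, a range of 81.7-fold. It did not rest on control 1 or control 3 alone: the standard deviation (SD) of log2 CPM was 2.69 over all 5, 2.42 without control 3 and 2.88 without control 1. Ptch1, a hedgehog receptor and target in theca, had 11.7, 9.498, 6.95, 7.83 and 8.59 FPKM in controls 1 to 5 and did not share that order. Mgarp, a mitochondrial protein, had 165, 375, 181, 258 and 242 FPKM in controls 1 to 5, with control 2 highest. The order thus differed again for Aldh1a1, which had 775, 1116, 1807, 578 and 655 FPKM in controls 1 to 5, with controls 3 and 2 highest. Insl3, a theca hormone, had 1.11, 1.47, 4.82, 0.749 and 0.384 FPKM in controls 1 to 5, but 61.8% of its windows are shared with transcripts of Jak3, so its level is uncertain. The summed theca level was 1087, 1510.4, 2309.5, 908 and 919 FPKM in controls 1 to 5, and Aldh1a1 made up most of it in each.

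Corpus luteum genes varied the most of the ovarian cell lists, with a median SD of log2 CPM of 1.53 against 0.39 for granulosa, 0.47 for theca and 0.33 for oocyte genes. All 8 had a mean of at least 1 FPKM, and 5 of 8 had an SD of at least 1, which 2.11% of all genes reached. Members of this and the other lists were chosen with earlier results of these data known. These shares thus describe the lists and test nothing. Their summed level was 1371, 365, 328, 2420.4 and 661 FPKM in controls 1 to 5. Akr1c18 made up most of that sum in control 4. By CPM, 6 of the 8 genes were highest in control 1, as were 30.6% of all genes, and 6 were lowest in control 3, as were 32.1% of all genes.

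Akr1c18, the 20-alpha-hydroxysteroid dehydrogenase that inactivates progesterone in regressing corpora lutea, lies at chr13:4132615-4150654. It had 41.4, 25.3, 57.03, 1478 and 184 FPKM in controls 1 to 5. Control 4 was 8.04-fold above control 5, the next, and the other 3 were all under 60 FPKM. Sfrp4, a secreted Wnt inhibitor of luteal cells, had 617, 125, 50.1, 582 and 182 FPKM in controls 1 to 5, and was high in both controls 1 and 4. Ptgfr, the receptor for the prostaglandin that ends luteal function, had 96.8, 13.1, 7.38, 53.3 and 24.5 FPKM in controls 1 to 5. It too was highest in control 1, then control 4. Lhcgr, the receptor for luteinising hormone, had 276, 66.9, 139.8, 149 and 94.1 FPKM in controls 1 to 5, with control 1 the highest and control 2 the lowest.

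Hsd17b7, a reductase of oestrone and of cholesterol synthesis intermediates, had 186, 14.8, 3.88, 38.3 and 43.02 FPKM in controls 1 to 5. Control 1 was 4.32-fold above the next library and control 3 was 3.81-fold below the next lowest. Runx2, a transcription factor of luteinising cells, had 20.4, 14.5, 0.438, 12.7 and 11.4 FPKM in controls 1 to 5. The other 4 libraries lay within 1.798-fold, while control 3 was 25.9-fold below the lowest of them, from 85 counts. Prlr and Scarb1, the prolactin receptor and the receptor that takes up cholesterol from lipoproteins, varied less, by 2.49-fold and 2.05-fold, and both were lowest in control 3. The luteal genes thus did not share 1 order: Runx2 set control 3 apart, Sfrp4 and Ptgfr were high in controls 1 and 4, and Akr1c18 was high in control 4.

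Steroid synthesis genes had a narrow range as a sum on the deposited scale, most of which was Hsd3b1 and Cyp11a1. Single members varied more: 4 of the 12, Star, Cyp17a1, Hsd17b7 and Cyp19a1, had an SD of at least 1, which 2.11% of all genes reached. The summed level of the 12 genes was 5830, 5816, 4486, 6245 and 5662 FPKM in controls 1 to 5. The range was 1.39-fold, but 1.88-fold on a common sum. Control 4 was highest, but control 1 was when every library was scaled to the same sum. Star, which carries cholesterol into the mitochondrion and is the acutely regulated step, lies at chr8:25806555-25815982 and had 143, 144, 19.7, 181 and 185 FPKM in controls 1 to 5. Control 3 was 7.25-fold below the next lowest library and the other 4 lay within 1.296-fold. Cyp11a1 had 1011, 807, 628, 1003 and 887 FPKM in controls 1 to 5, also lowest in control 3. Fdx1, the ferredoxin that supplies its electrons, had 143, 324, 156, 244 and 229 FPKM in controls 1 to 5, and control 2 was highest. Nr5a1, the nuclear receptor that drives many of these genes, had 46.7, 43.9, 74.1, 38.6 and 38.9 FPKM in controls 1 to 5, with control 3 highest. Star and Nr5a1 were thus at opposite ends in control 3.

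Cholesterol synthesis and uptake genes were lowest in control 3. The summed level of the 18 genes was 511, 437, 262, 392 and 454 FPKM in controls 1 to 5. Of them, 15 were lowest in control 3 on the CPM scale, beside the 32.1% of all genes. Hmgcs1, which makes HMG-CoA, had 164, 132, 48.3, 99.4 and 123 FPKM in controls 1 to 5. Dhcr7, which completes cholesterol, had 13.6, 22.2, 5.197, 17.3 and 27.7 FPKM in controls 1 to 5. Control 3 was 2.06-fold and 2.61-fold below the next lowest library in these genes. No member had an SD of at least 1, which only 2.11% of all genes reached. The median SD of the list was 0.46, against 0.28 for all genes.

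**Figure D3:**
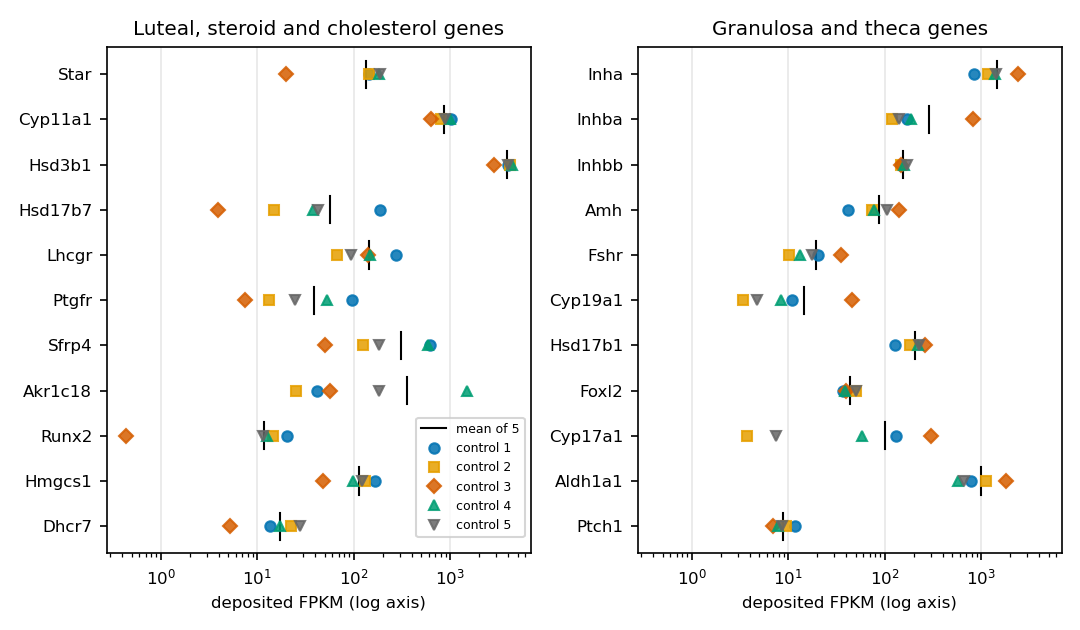
Deposited FPKM on a log axis for genes of the corpus luteum, steroid synthesis and cholesterol synthesis (left) and of granulosa and theca cells (right), with 1 symbol per control library and a bar at the mean of the 5. Control 3 is far to the left for Runx2, Hsd17b7 and Star and to the right for Inhba and Cyp19a1, and control 4 is to the right for Akr1c18.

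Genes induced at ovulation were low in every control. Of 10 measured members 2 reached a mean of 1 FPKM. These were Adamts1, a protease of the expanding cumulus matrix, with 9.91, 6.56, 4.903, 3.87 and 3.97 FPKM in controls 1 to 5, and Ptx3, which cross-links that matrix, with a mean of 1.34 FPKM. Control 1 was the highest in both. Ptgs2, the prostaglandin synthase induced before ovulation, had 0.159, 0.122, 0.06, 0.076 and 0.026 FPKM in controls 1 to 5. Pgr, the progesterone receptor, had 0.242, 0.126, 0.245, 0.127 and 0.131 FPKM in controls 1 to 5. Edn2, an endothelin made at follicle rupture, had 0.859, 0.436, 0.405, 2.07 and 0.546 FPKM in controls 1 to 5, with control 4 the highest.

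Oocyte genes had a narrow range as a sum, though their median SD of log2 CPM was 0.33, against 0.28 for all genes. Of 22 genes 21 reached 1 FPKM, and the summed level was 431, 406, 561, 540.5 and 602 FPKM in controls 1 to 5, a range of 1.48-fold with control 5 highest. On the CPM scale 14 members were highest in control 5, as were 11.7% of all genes, and 13 were lowest in control 1, as were 33.5% of all genes. Gdf9, an oocyte growth factor that acts on granulosa cells, had 45.1, 48.5, 56.8, 60.8 and 68.2 FPKM in controls 1 to 5. Zp3, the zona pellucida protein that binds sperm, had 38.9, 45.4, 82.7, 65.7 and 69.1 FPKM in controls 1 to 5. Zp3 was highest in control 3, and on a common sum in control 5. Padi6, a protein of the oocyte cytoplasmic lattices, had 52.2, 47.5, 59.8, 57.6 and 71.7 FPKM in controls 1 to 5. Nlrp14, an oocyte protein needed by the early embryo, had 58.7, 36.8, 45.5, 46.8 and 55.4 FPKM in controls 1 to 5. Control 5 was the highest for Gdf9 and Padi6, and control 1 for Nlrp14. Figla and Sohlh1, transcription factors of small follicles, were both lowest in control 1. Figla had 0.873, 1.95, 1.85, 2.88 and 3.67 FPKM in controls 1 to 5. Sohlh1 had 0.189, 0.896, 1.06, 0.784 and 1.55 FPKM in controls 1 to 5. Sohlh1 alone of the list had an SD of at least 1, from 6 counts in control 1, beside the 2.11% of all genes.

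The surface epithelium list was lowest in control 1. All 12 members reached 1 FPKM, and their summed level was 134, 279, 229, 258 and 204 FPKM in controls 1 to 5. In CPM, 8 members were lowest in control 1, as were 33.5% of all genes, and 6 highest in control 2, where 13.8% of all genes were highest. Without control 1 the range fell from 2.08-fold to 1.37-fold. Krt19, a keratin of simple epithelia, had 13.6, 45.9, 36.8, 41.5 and 26.2 FPKM in controls 1 to 5. Upk3b, a mesothelial marker, had 17.6, 38.3, 26.7, 28.7 and 26.2 FPKM in controls 1 to 5. Msln, mesothelin, had 14.9, 33, 16.9, 31.4 and 23.9 FPKM in controls 1 to 5. Control 1 was the lowest and control 2 the highest in each, except that on a common sum control 3 was the lowest for Msln. Muc16, a large mucin, had 3.24, 2.22, 0.931, 0.752 and 0.953 FPKM in controls 1 to 5 and was highest in control 1. Epcam, an epithelial adhesion protein, had 6.22, 19.1, 8.06, 17.4 and 9.75 FPKM in controls 1 to 5, with controls 2 and 4 high. Most markers of oviduct and ciliated cells were near 0: 3 of 10 reached 1 FPKM (Epcam, Cdh1 and Sox17, which other cells also express). Ovgp1, the oviduct glycoprotein, had 0.478, 0.391, 0.601, 0.655 and 0.392 FPKM in controls 1 to 5.

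Stroma, muscle and vessel markers were present in all 5. Dcn, decorin of the matrix, had 172, 282, 255, 142 and 145 FPKM in controls 1 to 5. Lum, lumican, had 99.4, 143, 55.4, 51.6 and 59.9 FPKM in controls 1 to 5. Control 2 was highest in both. By CPM, 6 of 10 stroma genes were highest in control 2, as were 13.8% of all genes, and 6 lowest in control 4, where 15.4% of all genes were lowest. Col1a2 varied by 1.27-fold and Tcf21, a stromal transcription factor, by 1.33-fold. Acta2, smooth muscle actin, had 191, 156, 381, 269 and 184 FPKM in controls 1 to 5. Cnn1, calponin, had 8.92, 6.43, 24.5, 10.9 and 8.19 FPKM in controls 1 to 5. Control 3 was highest for both, while Pdgfrb and Notch3, receptors of pericytes, were lowest there with 6.4 and 1.17 FPKM against 14.2 and 3.06 in control 1. On the CPM scale 8 of 12 muscle and pericyte genes were highest in control 3, as were 26.9% of all genes, and 5 lowest in control 5, where 8.04% of all genes were lowest. Endothelial genes had a summed level of 129.7, 111, 99.9, 114 and 109 FPKM in controls 1 to 5. The range was 1.30-fold, but 1.87-fold on a common sum. By CPM, 7 of 12 were highest in control 1, as were 30.6% of all genes. In control 3, 7 were lowest, as were 32.1% of all genes. Cdh5, the junction cadherin of endothelium, had 19.4, 13.1, 8.06, 13.4 and 13.4 FPKM in controls 1 to 5 with control 1 highest and control 3 lowest, but Cldn5, a tight junction claudin, had 24.02, 23.4, 28.5, 22.9 and 23.8 FPKM in controls 1 to 5 with control 3 highest, or control 1 on a common sum.

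Blood and immune markers differed between the ovaries. Hba-a1, an alpha globin, had 96.8, 123, 740.1, 222 and 230.4 FPKM in controls 1 to 5. Hbb-bs, a beta globin, had 114, 131, 379, 246 and 228 FPKM in controls 1 to 5. Control 3 was 3.21-fold and 1.54-fold above the next library. Most windows of these globin genes also occur in their near copies Hba-a2 and Hbb-bt, so the copies cannot be told apart. Alas2, which makes haem in red cell precursors, had 1.11, 2.02, 2.198, 2.59 and 3.12 FPKM in controls 1 to 5 and was not highest in control 3. The macrophage list had 11 of 13 members at 1 FPKM or more and a summed level of 256, 296, 413, 273 and 187 FPKM in controls 1 to 5. Lyz2, lysozyme, made up most of it with 157, 173, 233, 151 and 108 FPKM in controls 1 to 5. C1qb, a complement subunit, had 31.8, 40.7, 75.7, 42.3 and 26.2 FPKM in controls 1 to 5. Control 3 was the highest and control 5 the lowest in both. Spp1, osteopontin, had 9.47, 22.8, 15.7, 16.5 and 4.404 FPKM in controls 1 to 5, also lowest in control 5, a gene chosen after its values were seen. Igkc, the kappa light chain of plasma cells, had 8.91, 4.19, 19, 2.995 and 2.85 FPKM in controls 1 to 5. S100a9, a neutrophil protein, had 5.05, 1.45, 2.62, 2.38 and 1.68 FPKM in controls 1 to 5, and control 1 was highest. None of the 9 markers of T and NK cells or the 4 measured markers of mast cells reached a mean of 1 FPKM.

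Markers of fat, which surrounds the ovary, were low and varied. Adipocyte genes had a summed level of 26.9, 3.54, 40.1, 7.32 and 9.51 FPKM in controls 1 to 5, and 3 of 5 genes with a mean of at least 1 CPM had an SD of at least 1, against 2.11% of all genes. All 5 kept genes were lowest in control 2, as were 11.0% of all genes. Cfd, adipsin, had 9.09, 0.302, 24.02, 1.52 and 3.41 FPKM in controls 1 to 5, from 7 counts in control 2. Adipoq, adiponectin, had 2.76, 0.058, 1.95, 0.338 and 0.895 FPKM in controls 1 to 5. Controls 1 and 3 were high and control 2 was lowest, and S100b, a protein of glia and fat, also was lowest there with 8.74, 1.56, 5.83, 8.96 and 7.87 FPKM in controls 1 to 5. None of the 5 adrenal cortex markers reached 1 FPKM. Skeletal muscle had 1 of 5 members at 1 FPKM, Mylpf.

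**Figure D4:**
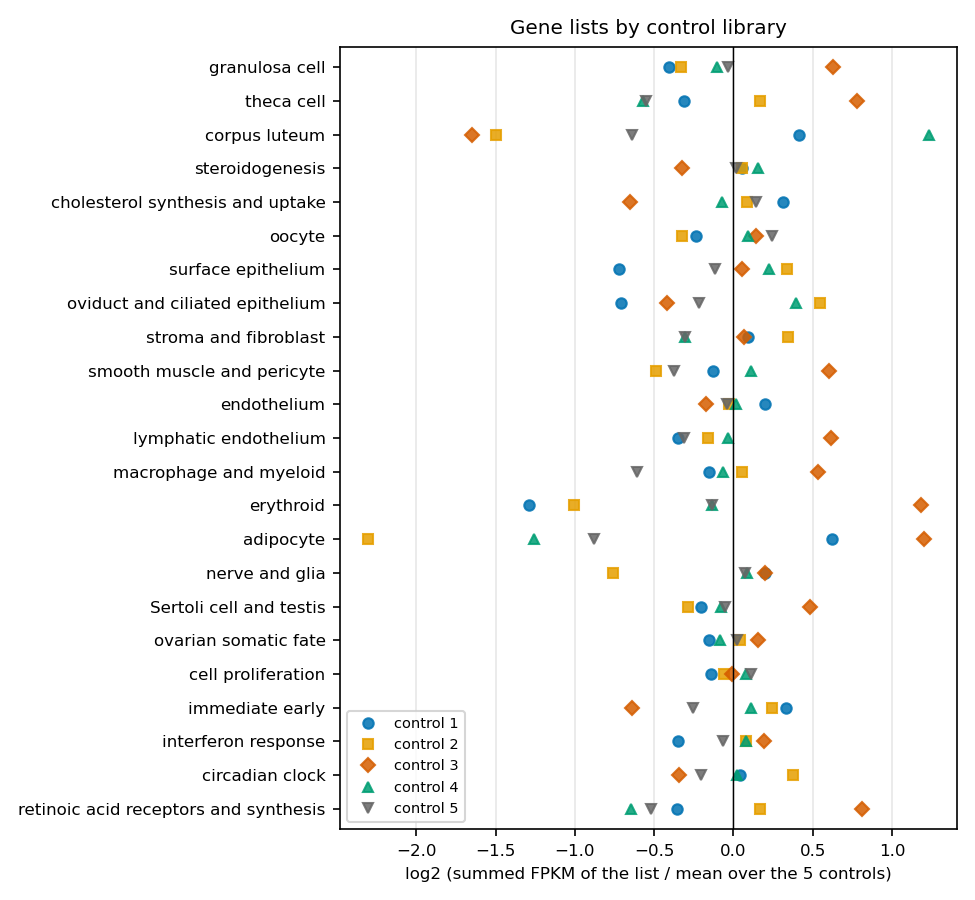
For each gene list with at least 3 members at a mean of 1 FPKM, the log2 ratio of the summed FPKM in a control library to the mean over the 5 controls (x axis), with 1 symbol per library. On this deposited scale proliferation, ovarian somatic fate and endothelium stay close to 0, while corpus luteum, erythroid and adipocyte lists spread the most.

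As a sum, genes that set the identity of the ovary had similar levels in all controls. All 14 somatic fate genes reached 1 FPKM, and their summed level was 249.7, 287, 311, 262 and 283 FPKM in controls 1 to 5. None had an SD of at least 1, which only 2.11% of all genes reached. Their median SD was 0.31, against 0.28 for all genes. Gata4, a partner of Nr5a1, had 37.99, 40.7, 64.4, 38.4 and 37.96 FPKM in controls 1 to 5 with control 3 highest. Esr2, the oestrogen receptor of granulosa cells, had 37.7, 28.2, 29.3, 31.02 and 43.1 FPKM in controls 1 to 5. Wnt4, a signal of ovarian determination, had 13.3, 29.8, 21.4, 27.7 and 22.4 FPKM in controls 1 to 5, lowest in control 1. Dmrt1, the testis fate gene of which the controls carried wild-type alleles, had 0 counts in all 5 controls, which allows up to 3 counts, or 0.116 to 0.128 CPM, per library. Sox9, the Sertoli cell factor, had 0.382, 0.713, 0.617, 0.649 and 0.492 FPKM in controls 1 to 5. Of 8 Sertoli and testis genes 3 reached 1 FPKM, namely Dhh, Gata1 and Cldn11, and the Sox9 level stayed below that. Dhh, a hedgehog ligand also made by granulosa cells, had 7.87, 9.69, 16.3, 11.3 and 11.9 FPKM in controls 1 to 5.

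The receptor genes that carried floxed alleles were measured in every control. Rara had 4.55, 5.76, 8.45, 5.404 and 5.24 FPKM in controls 1 to 5, with control 3 highest. Rarg had 5.85, 6.71, 7.91, 7.35 and 7.83 FPKM in controls 1 to 5. Rarb had 0.788, 0.971, 1.501, 0.858 and 0.999 FPKM in controls 1 to 5. Counted on either strand, Rarb shares 54.1% of its windows with transcripts of Top2b, so its level is uncertain. The libraries were stranded, and whether reads of Top2b entered the Rarb count was not tested. Rxra, a partner of these receptors, had 8.79, 9.45, 9.21, 8.03 and 9.06 FPKM in controls 1 to 5 and Rxrb varied by 1.42-fold. On the supply side Aldh1a1 was far above Aldh1a2, which had 28.3, 49.8, 38.8, 40.9 and 36.9 FPKM in controls 1 to 5, and Aldh1a3, which had 1.66, 2.199, 1.52, 1.36 and 1.49 FPKM in controls 1 to 5. Cyp26b1, which degrades retinoic acid, had 0.583, 0.975, 0.672, 0.399 and 0.633 FPKM in controls 1 to 5.

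Proliferation genes had the narrowest range of the summed lists with 3 or more members at 1 FPKM, though not when every library was scaled to a common sum. All 12 reached 1 FPKM and the summed level was 170.2, 181, 187, 199 and 203 FPKM in controls 1 to 5, a range of 1.19-fold. Top2a, a topoisomerase of dividing cells, had 28.2, 23.5, 28.7, 24.3 and 27.2 FPKM in controls 1 to 5. Immediate early genes, which respond within minutes to stimuli that include handling, were lower in control 3, with a summed level of 135, 127, 68.7, 116 and 89.8 FPKM in controls 1 to 5. Dusp1, a phosphatase of that response, had 20.7, 25.6, 3.33, 12.3 and 18.97 FPKM in controls 1 to 5, and control 3 was 3.69-fold below the next lowest library. Egr1, a zinc finger factor, had 26.4, 16.7, 7.46, 7.64 and 12.3 FPKM in controls 1 to 5, and control 1 was highest. Nr4a1, an orphan nuclear receptor, had 16.6, 26.4, 9.698, 32.7 and 11.8 FPKM in controls 1 to 5, and controls 4 and 2 were highest. In CPM, 8 of 13 genes were lowest in control 3, as were 32.1% of all genes, and 6 highest in control 4, where 17.0% of all genes were highest. Fos had 7.03, 3.94, 4.801, 4.38 and 4.59 FPKM in controls 1 to 5 and did not set control 3 apart.

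Interferon and clock genes were most often highest in control 2, namely 6 of 10 and 8 of 13 genes on the CPM scale, beside the 13.8% of all genes. The summed interferon level, 148, 199, 216, 199 and 180.1 FPKM in controls 1 to 5, was mostly Bst2 and was highest in control 3, or in control 2 on a common sum. Ifit3, an interferon-induced protein, had 2.72, 13.5, 4.54, 3.45 and 2.72 FPKM in controls 1 to 5, though 51.2% of its windows are shared with Ifit3b. Oasl2 had 2.19, 6.503, 3.3, 3.77 and 3.16 FPKM in controls 1 to 5. Ifit1 had 1.86, 6.07, 3.27, 2.33 and 1.61 FPKM in controls 1 to 5. Control 2 was highest in each. Per2, a core clock repressor, had 1.52, 4.38, 1.64, 1.201 and 0.763 FPKM in controls 1 to 5. Per3 had 3.29, 5.57, 2.02, 1.79 and 1.83 FPKM in controls 1 to 5. Dbp, a clock output factor, had 7.501, 19.8, 7.64, 12.4 and 8.91 FPKM in controls 1 to 5. Control 2 was the highest for these 3 genes, while Arntl, which peaks opposite to them in the daily cycle, had 2.898, 1.69, 1.404, 1.91 and 2.65 FPKM in controls 1 to 5 with controls 1 and 5 highest. The time of day of dissection is not given in the sources used here.

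Across all 16577 genes with a mean of at least 1 CPM, the median SD of log2 CPM was 0.28, against 0.06 from counting alone. An SD of at least 1 was reached by 350 genes, 242 of them protein coding. Without control 1 there were 330, of which 265 were among the 350, and without control 3 there were 235, of which 183 were. With the length trend taken out there were 348, 315 of them shared. Among the 350, control 3 was farthest from the median library in 189 (113 of them low) and control 1 in 85 (71 of them high). Controls 4, 2 and 5 were farthest in 40, 23 and 13. Counted another way, 56 genes were at least 4-fold lower in control 3 than in every other library and 31 at least 4-fold higher, against 8 and 26 for control 1 and 0 to 3 for each of the others.

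Several of the most variable genes were nearly absent from control 3. Gbp2b, an interferon-inducible GTPase at chr3:142594847-142619179, had the highest SD, 3.61, with 9.45, 19.2, 0.016, 11.7 and 7.91 FPKM in controls 1 to 5. Control 3 had 1 count against 560 to 1364 in the others, and without it the SD was 0.55. Bhmt, which methylates homocysteine with betaine, lies at chr13:93616675-93637961 and had 14, 17.4, 0.107, 34.8 and 40.9 FPKM in controls 1 to 5. Its SD was 3.49 over all 5 and 0.76 without control 3. Its pseudogene Bhmt-ps1 followed it, but 72.3% of the windows of that pseudogene occur in other genes. Mmel1, a membrane endopeptidase, had 5.54, 9.46, 0.144, 14.4 and 16.04 FPKM in controls 1 to 5.

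Plin4 and Plin5, genes of lipid droplets, were low there too. Plin4, a perilipin that coats lipid droplets, had 141, 31.1, 1.73, 81.3 and 59.8 FPKM in controls 1 to 5. Plin5, another, had 16.9, 28.2, 0.633, 31.5 and 33.04 FPKM in controls 1 to 5. Control 3 was 17.9-fold and 26.8-fold below the next lowest library. Plin1, the perilipin of the adipocyte list, was instead lowest in control 2 on the CPM scale. Sgk1, a kinase induced by steroids, had 107, 80.96, 5.17, 65.1 and 56.6 FPKM in controls 1 to 5. Rab27a, a vesicle GTPase, had 25.1, 24.5, 2.03, 20.1 and 27.9 FPKM in controls 1 to 5. In both, the other 4 libraries were all far above control 3. Cemip, which degrades hyaluronan, had 34.3, 14.9, 0.841, 19.3 and 7.88 FPKM in controls 1 to 5. Lrrn1 had 132, 41, 4.16, 51.5 and 34.3 FPKM in controls 1 to 5. In each of these control 3 was the lowest and the other 4 were all well above it. Sgk1, Rab27a, Cemip and Lrrn1 were chosen after their values were seen.

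Promoters of Bhmt and Runx2 are printed because these genes lay lowest together in control 3. The 250 bases before the start of Bhmt (RefSeq, GRCm38.p6, chr13:93637759-93638008, minus strand) hold CAAGGTCA, the letters bound by Nr5a1-type receptors, and those of Runx2 (chr17:44814628-44814877, minus strand) hold AACCACA, which is TGTGGTT on the other strand, the letters bound by Runx factors. Capitals mark these letters. The GENCODE genes reach further, to 93637961 for Bhmt and 44814797 for Runx2. Both windows thus overlap the genes, and the letters lie inside them.
Bhmt: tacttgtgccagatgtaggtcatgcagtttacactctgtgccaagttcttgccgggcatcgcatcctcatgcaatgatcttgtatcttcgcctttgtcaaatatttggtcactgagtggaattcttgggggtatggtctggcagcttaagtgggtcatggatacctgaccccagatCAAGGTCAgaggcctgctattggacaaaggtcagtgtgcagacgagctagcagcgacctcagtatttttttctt
Runx2: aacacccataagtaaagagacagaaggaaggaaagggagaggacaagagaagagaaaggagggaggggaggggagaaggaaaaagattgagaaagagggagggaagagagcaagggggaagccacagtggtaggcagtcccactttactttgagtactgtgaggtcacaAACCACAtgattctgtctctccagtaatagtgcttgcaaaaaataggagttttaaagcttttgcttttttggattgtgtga
On either strand CAAGGTCA occurs in 1.33% and TGTGGTT in 4.396% of the promoter windows. The window of Bhmt holds no TGTGGTT and that of Runx2 no CAAGGTCA, which says only that these letters are not there.

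Other genes were high in control 3 alone. Comp, a matrix protein, had 0.71, 0.497, 14.6, 0.563 and 0.188 FPKM in controls 1 to 5. Rhox8, a homeobox gene of the reproductive cluster on the X chromosome, had 3.77, 7.77, 112, 5.003 and 3.71 FPKM in controls 1 to 5. Rhox8 in control 3 was 14.4-fold above the next library, and without control 3 its SD fell from 2.05 to 0.49. Mt3, a metallothionein, had 3.003, 4.296, 70.1, 4.302 and 4.26 FPKM in controls 1 to 5. Defb19, a beta-defensin, had 26.02, 43.8, 192, 32.9 and 36.2 FPKM in controls 1 to 5. Both were chosen after their values were seen. Comp was below 1 FPKM in the remaining libraries, and Rhox8, Mt3 and Defb19 were far below their control 3 level in each.

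Some genes were highest in controls 1 and 4. Nrcam, a cell adhesion molecule, had 14.9, 1.01, 0.607, 13.3 and 4.69 FPKM in controls 1 to 5, high in both. Tnfrsf9, a receptor of the tumour necrosis factor family, had 4.12, 0.234, 0.502, 10.8 and 0.85 FPKM in controls 1 to 5. Control 5 came next in both genes. Ces2a, a carboxylesterase, had 44.6, 0.439, 0.27, 14.6 and 2.67 FPKM in controls 1 to 5, with 26 and 14 counts in controls 2 and 3. Saa2, an acute-phase protein, had 5.62, 0.269, 0, 1.096 and 0.396 FPKM in controls 1 to 5, with 0 counts in control 3. Sequence shared with other genes covers 22.2% and 31.8% of the windows of Ces2a and Saa2. For all 4 genes controls 1 and 4 were the highest, as they were for Sfrp4 and Ptgfr.

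Control 1 alone was high for other genes. Vcan, the proteoglycan versican, had 36.4, 8.32, 9.79, 7.31 and 7.08 FPKM in controls 1 to 5. Pappa, which cleaves binding proteins of insulin-like growth factors, had 4.002, 0.231, 0.211, 0.553 and 0.517 FPKM in controls 1 to 5. Amdhd1, an enzyme of histidine breakdown, had 8.89, 0.674, 0.414, 0.835 and 0.774 FPKM in controls 1 to 5. The other 4 libraries were all far below control 1 in each. On the low side, Stc1, stanniocalcin, had 3.87, 21.6, 20.8, 13.2 and 32.8 FPKM in controls 1 to 5. Igfbp2 had 18.6, 62.8, 52.97, 57.04 and 44.6 FPKM in controls 1 to 5. These 5 were chosen after their values were seen. Control 4 alone was high for Cdkn2b, a cell cycle inhibitor with 4.31, 1.43, 2.06, 20.7 and 5.55 FPKM in controls 1 to 5, and Tnc, tenascin, with 16.2, 11.9, 12.9, 42.4 and 17.3 FPKM in controls 1 to 5, also chosen after their values were seen.

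**Figure D5:**
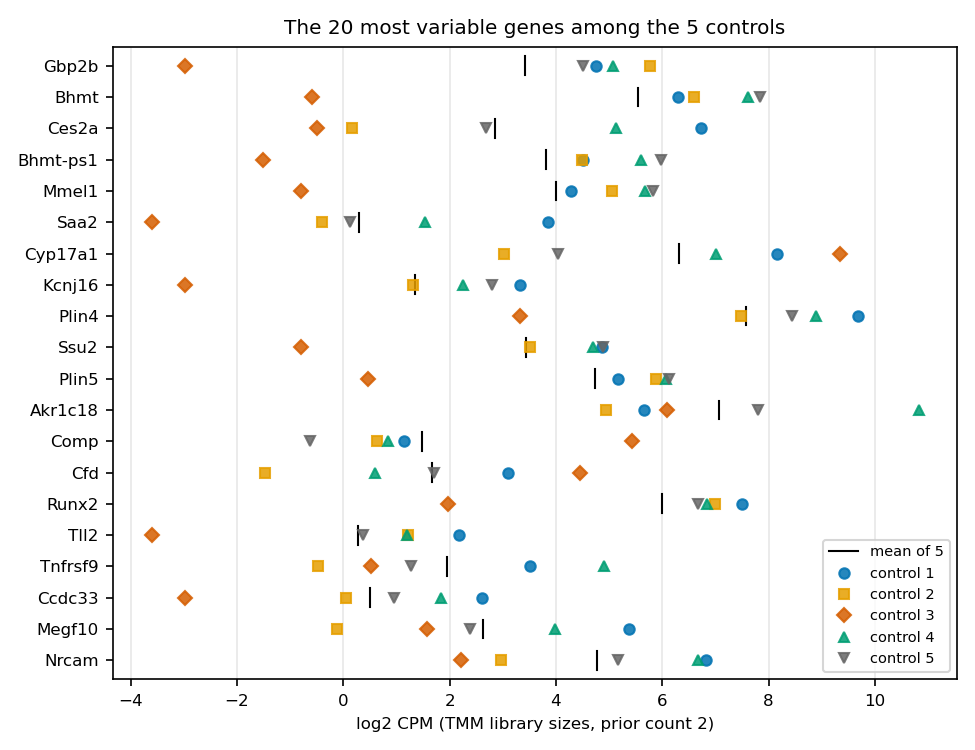
The 20 genes with the highest SD of log2 CPM over the 5 controls, predicted genes left out, in log2 CPM with a prior count of 2, with 1 symbol per library and a bar at the mean of the 5. Control 3 is the lowest symbol for most of them, and Akr1c18 is set apart by control 4 and Comp by control 3.

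At the other end, abundant genes of general cell function hardly varied. Among 1891 genes with a mean of at least 100 CPM, Sdha, a subunit of succinate dehydrogenase, had the lowest SD of log2 CPM, 0.02, with 60.2, 59.2, 60.9, 57.6 and 58.4 FPKM in controls 1 to 5. Hnrnpdl and Hnrnpa3, RNA-binding proteins, had SDs of 0.03 and 0.03. Itm2b, an integral membrane protein, had 361, 388, 368, 361 and 360.3 FPKM in controls 1 to 5. Rab10, Tpm3, Adamts10, Sf3b3, Ddb1 and Sec31a completed the 10 steadiest, each within 0.05 in SD. The counting-only SD of Sdha was 0.02, close to its spread. These SDs rose when the length trend was subtracted, to 0.06 for Sdha and 0.11 for Hnrnpdl, so which genes were steadiest depends on that choice.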

How the data were processed

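RNA-seq values of 5 control ovaries were taken from 2 tables of the whole series. The authors' deposited counts are raw counts per Ensembl gene, and their deposited FPKM values, normalised per the labels, are scaled per transcript length. Per the submitters' processing notes, Trimmomatic 0.32, STAR 2.4.2a, SAMtools 1.0 and DESeq2 1.12.3 were used on GRCm38 (mm10). The counting tool and its annotation are not given in the sources used here. The table of differential expression was not used here.

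FPKM served for levels and ranks between genes. Counts served for CPM and for the SD of log2 CPM, with TMM library sizes of edgeR 4.0.16 (R 4.3.3), a prior count of 2 and a mean CPM of at least 1. Groups came from the titles, and no comparison between groups was tested. The SD from counting alone was computed beside it, and the script was tested on simulated data. Total counts of 23502220 to 25920131 put 3 counts, the limit that a count of 0 allows, at 0.116 to 0.128 CPM, which covers counting error only. Positions came from GENCODE M21 on GRCm38, which matched 24038 of 24306 identifiers, and 438 had no symbol. Where a symbol had several identifiers, 1 was used. Shared sequence was measured as 50-base windows of a transcript that also occur, on either strand, in transcripts of another gene. It therefore includes overlap with a gene on the opposite strand.

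The named genes were the 30 of highest mean FPKM, the 20 of highest SD over all 5 and over the 4 controls other than control 1, the 10 of lowest SD at a mean CPM of at least 100, the 3 most abundant and 2 most variable members of each list, and the receptor genes with Nr5a1 and Dmrt1. Predicted genes were left out of the SD lists, and only some of all these are printed. Genes described by role from the lists were added to these. Members and lists were chosen with earlier results of these data known. Alternatives covered the unit, thresholds, normalisation (DESeq2 1.42.0 size factors), prior count, filter, transcript length, shared sequence and each library left out. Some list members are not reported here.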

Additional observations from a re-analysis of the deposited data

Results flagged for a closer look

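Values of the 5 controls were compared by the gap between the highest or lowest library and its nearest neighbour, divided by the whole range. A ratio above Dixon's critical value of 0.71 for 5 samples set a library apart. Chance alone does this in about 1 in 20 groups of normally distributed values, and here 37 of 170 sets of values did. Genes were chosen in part for their variation, and some because a single library lay beyond the others. These rates therefore cannot be compared. The ratio was taken on FPKM without a log, where a low library passes less readily than a high one. Runx2, nearly absent from control 3, did not pass. The ratios thus do not show how often a library was low. By log2 CPM, 56 genes were at least 4-fold lower in control 3 than in every other library and 31 at least 4-fold higher. Among summed gene lists, control 1 was set apart as the highest with a ratio of 0.719 for neutrophil genes. Among summed gene lists, control 2 was set apart as the lowest with a ratio of 0.827 for nerve and glia genes. Among summed gene lists, control 3 was set apart as the highest with a ratio of 0.719 for granulosa cell genes, 0.748 for lymphatic endothelium genes, 0.732 for erythroid genes and 0.757 for Sertoli cell and testis genes. Among single genes in FPKM, control 1 was the highest with a ratio of 0.950 for Amdhd1, 0.723 for Fos, 0.785 for Hsd17b7, 0.910 for Pappa, 0.805 for Saa2, 0.854 for Sesn3 and 0.907 for Vcan. Among single genes in FPKM, control 2 was the highest with a ratio of 0.838 for Cxcr4, 0.830 for Ifit3, 0.734 for Itm2b and 0.757 for Per2. Among single genes in FPKM, control 3 was the highest with a ratio of 0.803 for Cldn5, 0.751 for Cnn1, 0.964 for Comp, 0.822 for Cyp19a1, 0.893 for Defb19, 0.894 for Gata4, 0.792 for Hba-a1, 0.903 for Inhba, 0.755 for Insl3, 0.981 for Mt3, 0.774 for Nr5a1 and 0.962 for Rhox8. Among single genes in FPKM, control 3 was the lowest with a ratio of 0.721 for Hsd3b1 and 0.745 for Star. Among single genes in FPKM, control 4 was the highest with a ratio of 0.891 for Akr1c18, 0.786 for Cdkn2b, 0.728 for Edn2, 0.757 for S100a6 and 0.823 for Tnc. Among single genes in FPKM, control 5 was the highest with a ratio of 0.751 for Akr1c13. With FPKM scaled to a common sum per library, a choice made after seeing these ratios, 25 of these 37 ratios stayed above the critical value for the same library and 12 did not. Of the lists that did not, the ratio on a common sum became 0.631 for granulosa cell genes, 0.680 for erythroid genes, 0.434 for nerve and glia genes and 0.422 for Sertoli cell and testis genes. Of the genes that did not, the ratio on a common sum became 0.581 for Edn2, 0.479 for Gata4, 0.677 for Insl3, 0.231 for Nr5a1, 0.599 for S100a6 and 0.7098 for Tnc. For Cldn5 and Itm2b another library was then the highest. For Cldn5 and Itm2b the whole range was small, so that a modest gap sufficed.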

How the results depend on the processing

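Of the 30 genes of highest mean FPKM, 16 were also among the 30 highest by CPM, which has no length term, and 2 among the 30 highest protein-coding genes once mitochondrial and ribosomal protein genes were left out. The share of counts in the 10 most abundant genes, a mean of 8.33%, was 6.31% without mitochondrially encoded genes and 4.07% also without their chromosome 1 copies. The number of genes with SD of log2 CPM of at least 1, 350, became 1010 at a mean CPM of at least 0.1, 109 at 10 and 1026 without a filter, as more or fewer genes of low count entered. Other normalisations, prior counts, the log2(FPKM + 0.1) scale and the subtraction of the length trend kept that count within 1.5 times, and leaving out 1 library gave 235 (without control 3) to 464 (without control 5). Among 143 named genes, the SD moved by over 1.5 times in 49 without control 3, in 19 without control 1, in 15 of 132 with the length trend subtracted, and in 0 with DESeq2 size factors. Scaling FPKM to a common sum changed which library was highest for steroidogenesis, somatic fate and interferon genes, and which was lowest for granulosa, ovulation, proliferation, oviduct, lymphatic, somatic fate, B and plasma cell, T and NK cell, skeletal muscle and adrenal cortex genes. It moved the mean sum of 26 of 30 lists by over 1 SD, since the common sum exceeds every deposited sum. Among others it also changed the highest control of Eef1a1, Hsd3b1, Esr2, Inhbb, Nr5a2, Rarg, Rxra, Top2a, S100b and Rab27a, and the lowest of Foxl2, Mgarp, Fdx1, Gdf9 and Rara. No paired analysis was possible because only 1 group was described. Depth limits genes with a few counts in a library, such as Gbp2b and Saa2 in control 3, for which no fold is given.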

Other observations

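A few genes not described so far set a single control apart from the other 4, and all were chosen after their values were seen. In control 2, Cxcr4, the receptor of a chemokine that guides leukocytes, had 4.46, 15.4, 4.43, 6.19 and 4.41 FPKM in controls 1 to 5. Prss23, a serine protease of the ovary, had 18.97, 6.27, 21.7, 16.5 and 15.8 FPKM in controls 1 to 5, lowest in control 2. In control 4, S100a6, a calcium-binding protein, had 64.8, 65.4, 37, 154 and 58.6 FPKM in controls 1 to 5. Cdkn1a, an inhibitor of the cell cycle, had 5.63, 9.33, 5.02, 19.7 and 7.28 FPKM in controls 1 to 5, and control 4 was again the highest, as for Cdkn2b. In control 5, Akr1c13, an aldo-keto reductase of the same family as Akr1c18, had 3.13, 2.503, 3.15, 5.02 and 12.6 FPKM in controls 1 to 5, so the family members Akr1c18 and Akr1c13 were highest in different ovaries. Sesn3, a stress-induced sestrin, had 27.9, 5.87, 4.08, 7.56 and 7.13 FPKM in controls 1 to 5, with control 1 the highest. No cause was tested for any of these.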
